A study of Mus musculus with 6 samples.

Results

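The genes described here are 38 enzymes and regulators of xenobiotic metabolism in the mouse lung, of 49568 genes in the deposited table. They were chosen by name: 8 cytochromes P450 with their reductase Por, 3 flavin monooxygenases, 12 glutathione transferases, 5 aldehyde and alcohol dehydrogenases, 6 hydrolases, reductases and oxidases, and 3 genes of the Ahr pathway. Lungs of Col6a1-/- mice, which lack a working gene for the alpha 1 chain of collagen VI, were compared with lungs of wildtype mice. All animals carried the strain label C57BL/6 and were 6 weeks old, and RNA came from the right lobes after the lung vessels had been perfused. Each library pooled RNA from 2 animals of 1 genotype, so that 12 animals gave 3 pools of Col6a1-/- and 3 of wildtype. No group received an agent, and the labels give no sex.

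Xenobiotic metabolism removes foreign chemicals in stages. Phase I enzymes, mainly P450s and flavin monooxygenases, oxidise a compound, with P450s taking electrons from NADPH through the reductase encoded by Por. Phase II enzymes such as glutathione transferases then couple the product to a soluble group, while dehydrogenases, reductases, epoxide hydrolase and esterases convert reactive carbonyls, quinones, epoxides and esters. The receptor Ahr, when bound by planar aromatic ligands, enters the nucleus with its partner Arnt and switches on Cyp1a1, Cyp1b1, Ahrr and Tiparp. In the mouse airway these enzymes are best known from club cells, and several are also made in alveolar, endothelial and connective tissue cells.

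Promoters are printed for 7 of the genes, 250 bases upstream of the RefSeq start (GRCm38.p6), because their levels are followed by pool below. Cyp1a1 (chr9:57697363-57697612, plus strand), Tiparp (chr3:65528197-65528446, plus strand) and Nqo1 (chr8:107403206-107403455, minus strand) were the genes that stood highest together in 1 wildtype pool, and the Ahr targets Cyp1b1 (chr17:79715062-79715311, minus strand) and Ahrr (chr13:74292332-74292581, minus strand) did not stand high there. Gsta3 (chr1:21240335-21240584, plus strand) and Mgst1 (chr6:138140277-138140526, plus strand, the first of its 2 RefSeq starts) were among 10 genes higher in every Col6a1-/- pool than in any wildtype pool. All are written 5′ to 3′ in the direction of transcription, and capitals mark matches, on either strand, to GCGTG, the core of the Ahr response element, or to TGACNNNGC, the core of the antioxidant response element bound by Nrf2.
Cyp1a1: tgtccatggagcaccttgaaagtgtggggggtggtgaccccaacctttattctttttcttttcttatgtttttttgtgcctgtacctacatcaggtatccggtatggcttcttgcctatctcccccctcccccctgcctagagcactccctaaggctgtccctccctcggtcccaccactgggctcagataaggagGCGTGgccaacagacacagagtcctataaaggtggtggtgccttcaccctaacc
Tiparp: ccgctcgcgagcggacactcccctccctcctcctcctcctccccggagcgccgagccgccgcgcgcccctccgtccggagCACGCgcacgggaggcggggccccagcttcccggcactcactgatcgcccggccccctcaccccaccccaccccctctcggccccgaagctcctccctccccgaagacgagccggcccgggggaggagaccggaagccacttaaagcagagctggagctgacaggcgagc
Cyp1b1: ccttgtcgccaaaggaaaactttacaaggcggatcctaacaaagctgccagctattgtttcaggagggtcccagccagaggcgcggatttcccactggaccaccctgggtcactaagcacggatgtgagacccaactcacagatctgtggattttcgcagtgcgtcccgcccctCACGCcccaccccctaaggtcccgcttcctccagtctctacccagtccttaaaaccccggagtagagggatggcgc
Ahrr: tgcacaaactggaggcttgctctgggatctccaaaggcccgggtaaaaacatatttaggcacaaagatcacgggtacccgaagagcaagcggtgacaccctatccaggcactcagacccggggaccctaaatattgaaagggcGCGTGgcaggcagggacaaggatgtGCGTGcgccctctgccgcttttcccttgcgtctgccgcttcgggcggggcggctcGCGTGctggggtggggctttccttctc
Nqo1: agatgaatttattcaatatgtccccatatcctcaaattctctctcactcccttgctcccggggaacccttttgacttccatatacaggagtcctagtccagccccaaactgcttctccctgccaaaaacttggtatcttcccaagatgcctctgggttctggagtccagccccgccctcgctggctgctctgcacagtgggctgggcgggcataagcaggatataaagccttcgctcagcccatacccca
Gsta3: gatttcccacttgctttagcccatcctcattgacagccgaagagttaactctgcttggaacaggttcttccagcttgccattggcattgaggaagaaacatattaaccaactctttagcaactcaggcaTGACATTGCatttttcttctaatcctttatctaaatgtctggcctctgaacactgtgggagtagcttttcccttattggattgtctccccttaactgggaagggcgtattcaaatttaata
Mgst1: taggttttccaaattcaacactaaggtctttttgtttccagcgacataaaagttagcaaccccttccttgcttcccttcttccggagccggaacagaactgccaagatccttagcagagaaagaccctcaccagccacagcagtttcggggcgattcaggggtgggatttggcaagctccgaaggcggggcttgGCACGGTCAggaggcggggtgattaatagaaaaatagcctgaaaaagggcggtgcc
GCGTG was found in 1 copy in Cyp1a1, in 1 copy on the opposite strand in Tiparp and in Cyp1b1, in 3 copies in Ahrr, and not in the Nqo1, Gsta3 or Mgst1 windows. TGACNNNGC was found once in Gsta3, once on the opposite strand in Mgst1, and in none of the other 5. The second RefSeq start of Mgst1 held neither motif. Neither did the promoter of Cyp2e1, which is not printed and was also higher in every Col6a1-/- pool. Promoters were on hand for 32 of the 38 genes. GCGTG lay in 12 of these 32 (37.5%) and in 30.9% of the promoters of all 27025 genes with an entry, and TGACNNNGC in 3 of 32 (9.38%) and in 11.5%. The 3 were Gsta3, Gstm5 and Mgst1. Cyp2j6, Fmo5, Mgst2 and Aldh1a7, also higher in every Col6a1-/- pool, were without TGACNNNGC. The 2 motifs did not overlap in the printed windows.

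Values below are the authors' normalized counts, reads per gene divided by 1 size factor per library. Each library held between 28055414 and 37904878 reads assigned to genes. Col6a1 itself had 10034, 10616 and 9344 normalized counts in Col6a1-/- pools 1 to 3 and 19907, 18393 and 22330.5 in wildtype pools 1 to 3, a log2 fold change of -1.01 (limma adjusted p 0.00643). The pools differed in sex: the male share, from 4 Y-linked genes relative to Col6a1-/- replicate 2, was 72.5%, 100% and 51.1% in Col6a1-/- replicates 1 to 3 and 0.347%, 3.35% and 51.5% in wildtype replicates 1 to 3. The 100% is fixed, since Col6a1-/- replicate 2 was made the reference for its low Xist, the X-linked gene active in females. Xist had 12025, 28.4 and 10486.5 normalized counts in Col6a1-/- and 16212, 16430 and 13592 in wildtype pools. By Xist, Col6a1-/- replicate 2 was the pool closest to all male. By the Y-linked genes, wildtype replicates 1 and 2 were close to all female. Shares differed by gene: Ddx3y had 1639 and 1759 in Col6a1-/- replicates 1 and 2, and Kdm5d 616 and 1176. Lung markers were abundant in every pool. The type 2 cell gene Sftpc averaged 528273 ± 74519 normalized counts in Col6a1-/- and 527102 ± 41970.2 in wildtype lungs, and the club cell gene Scgb1a1 averaged 708519 ± 87488 in Col6a1-/- lungs, against 538978 ± 74426 in wildtype (SD, n = 3 pools each). Hepatocyte markers were near absent, with summed counts over 12 genes of 80.2 to 141 in Col6a1-/- and 109 to 123 in wildtype pools, and Serpina1a, Fgb, Cyp2c29 and Cyp3a11 at 0 in all 6.

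All 38 genes passed the filter on low counts, 10 or more normalized counts in 3 or more pools. Among them, 0 passed the limma test of Col6a1-/- against wildtype at a Benjamini-Hochberg adjusted p of 0.05, where 0.0652% of the 16879 genes tested did (0.0178% higher and 0.0474% lower). At an unadjusted p under 0.05, 6 were higher and 1 was lower in Col6a1-/- lungs (15.8% and 2.63% of the 38, against 9.72% and 10.6% of all genes tested, and 20.3% in either direction). edgeR on recovered reads called 0 of the 38, against 0.077% of all genes (0.0178% higher and 0.0592% lower). In the authors' deposited table, 3 were called higher and 1 lower, against 1.87% and 3.18% of the genes with an adjusted p there, 5.05% together. These 4 were Mgst1, Gsta3 and Cyp2e1, higher, and Cyp1a1, lower, and DESeq2 rerun on the recovered reads called the same 4, against 5.06% of genes.

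Estimates leaned upward. A fold change above 0 was seen for 27 of the 38 (71.1%) against 51.7% of all genes tested, and the median log2 fold change was 0.17 against 0.01. In 10 genes the 3 Col6a1-/- pools all lay above the 3 wildtype pools (26.3%, against 10.7% of all genes tested). These were Cyp2e1, Cyp2j6, Fmo5, Gsta3, Gsta4, Gstm5, Mgst1, Mgst2, Aldh1a7 and Ces1d. With each library centred on its median the count was 7, against 8.02% of all genes. In 1 gene, Cyp1a1, all Col6a1-/- pools lay below all wildtype pools (2.63%, against 14.2%, and 24.9% in either direction). The median was 0.08 without Col6a1-/- replicate 2, and 0.04 with the male share as a covariate after removal of each library's trend on transcript length and GC content.

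**Figure D1:**
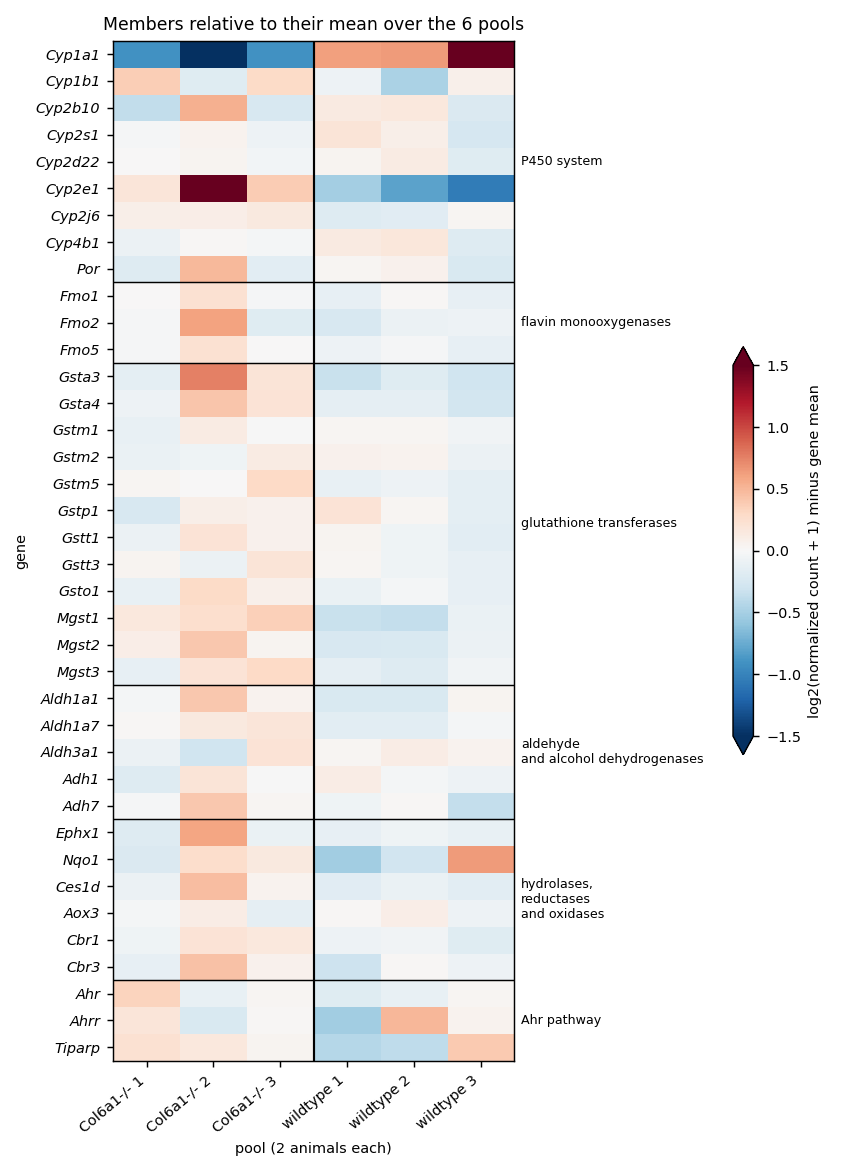
Each row is 1 of the 38 genes and each column 1 pool, Col6a1-/- pools on the left and wildtype on the right. Colour gives log2(normalized count + 1) minus the gene's mean over the 6 pools, and the darkest shades include values beyond the scale. Cyp1a1 was lowest in Col6a1-/- replicate 2 and highest in wildtype replicate 3, and 20 of the 38 genes were highest in Col6a1-/- replicate 2.

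**Figure D2:**
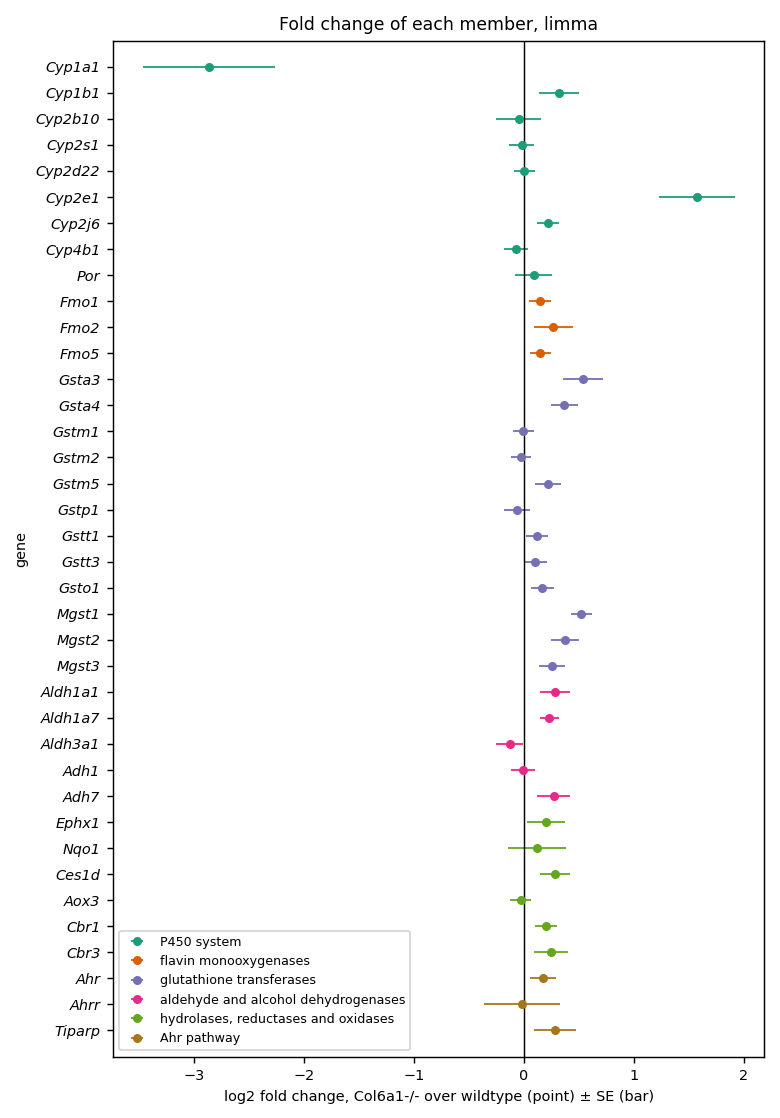
Points are limma log2 fold changes of Col6a1-/- over wildtype on the log2(normalized count + 1) scale and bars are their standard errors, coloured by enzyme class. Cyp1a1 at -2.86 and Cyp2e1 at 1.57 lay apart from the other 36 genes, which ran between -0.13 and 0.54.

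Cyp1a1, the P450 best known as the marker of Ahr activation (ENSMUSG00000032315.6, chr9:57687928-57703824, plus strand, GRCm38), had the largest difference of the 38. It had 396, 132 and 394 normalized counts in Col6a1-/- replicates 1 to 3, against 1134, 1156 and 6151 in wildtype replicates 1 to 3. The genotypes did not overlap, and wildtype replicate 3 stood at 5.37 times the mean of the other wildtype pools. Pools averaged 308 ± 152 in Col6a1-/- lungs, against 2814 ± 2890.1 in wildtype (SD, n = 3 pools each), so that Col6a1-/- lungs held 10.9% of the wildtype level. By limma it differed by -2.86 ± 0.60 on the log2 scale (± SE), at an adjusted p of 0.0869, and edgeR gave 0.0692 as its adjusted p. Without wildtype replicate 3 the log2 fold change was -2.06 and passed, at a limma adjusted p of 0.0155, in a fit that called 1383 genes in all, against 11. Without any other pool it ran from -3.28 to -2.34 and did not pass, with limma adjusted p of 0.0821 to 0.342. The mean of wildtype replicates 1 and 2 was still 3.72 times that of the Col6a1-/- pools. The authors' deposited table gave a log2 fold change of -0.32 and an adjusted p of 0.0188. DESeq2 rerun on the recovered reads, without shrinkage, gave -3.19 at the same adjusted p. The deposited fold changes are thus not on the same scale as the others here, and whether they were shrunk is not given. Only 0.207% of the genes tested varied more between pools of 1 genotype than Cyp1a1.

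Like Cyp1a1, the other Ahr readouts did not pass the limma test over all 6 pools. Ahr, the receptor (ENSMUSG00000019256.17, chr12:35497974-35535038, minus strand), had 4462, 3279 and 3595 normalized counts in Col6a1-/- pools and 3121, 3268 and 3609 in wildtype pools. The ranges overlapped, with a log2 fold change of 0.17 (SE 0.12, limma adjusted p 0.432). Ahrr, the repressor that competes with Ahr for Arnt, was scarce, at 19.3, 14.2 and 17.0 normalized counts in Col6a1-/- and 11.4, 24.2 and 17.4 in wildtype pools (log2 fold change -0.02, SE 0.34, limma adjusted p 0.983). Tiparp, a mono-ADP-ribosyltransferase that dampens Ahr, had 1517, 1439 and 1324 normalized counts in Col6a1-/- pools, against 956, 988 and 1695 in wildtype pools. Wildtype replicate 3 lay above all Col6a1-/- pools and the other wildtype pools below them. The log2 fold change of Tiparp was 0.28 (SE 0.19, limma adjusted p 0.416), and 0.55 without wildtype replicate 3, with a limma adjusted p of 0.0127; without any other pool the limma adjusted p was 0.471 or more.

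Cyp1b1, the extrahepatic member of the P450 family 1, had 439, 298 and 415 normalized counts in Col6a1-/- pools and 321, 245 and 357 in wildtype pools. These ranges overlapped, and the log2 fold change was 0.32 (SE 0.18, limma adjusted p 0.342). Nqo1, a quinone reductase that is a target of both Ahr and Nrf2, had 203, 283 and 261 normalized counts in Col6a1-/- pools, against 164, 193 and 368 in wildtype pools. Like Tiparp it was highest in wildtype replicate 3 and lowest in wildtype replicates 1 and 2, and its log2 fold change was 0.12 (SE 0.26, limma adjusted p 0.825). Aldh3a1, an aldehyde dehydrogenase that Ahr can induce, had 821, 711 and 1007 normalized counts in Col6a1-/- pools and 894, 946 and 910.1 in wildtype pools, with a log2 fold change of -0.13 (SE 0.13, limma adjusted p 0.578). Cyp1a2, the liver form and no member of the set, reached at most 4.15 normalized counts in any pool; it was looked up after the values of Cyp1a1 were seen.

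Within the wildtype group, wildtype replicate 3 thus stood out for 3 of these genes. Its ratio to the mean of the other wildtype pools was 5.37 for Cyp1a1, 2.06 for Nqo1 and 1.74 for Tiparp, which ranked 9, 195 and 457 among the 16879 genes tested. The same ratio was 1.26 for Cyp1b1, 1.13 for Ahr, 0.989 for Aldh3a1 and 0.98 for Ahrr. Wildtype replicate 3 was also the wildtype pool with males, and the pool with the lowest mean level of the club cell list, -0.49 on the log2 scale relative to the 6-pool mean (range -0.04 to 0.22 in Col6a1-/- pools and 0.03 to 0.14 in the other wildtype pools). In the pools of mixed sex alone, Col6a1-/- replicates 1 and 3 against wildtype replicate 3, Cyp1a1 had a log2 fold change of -3.96, Nqo1 of -0.67 and Tiparp of -0.26. With the male share as a covariate the 3 values were -3.66, -0.64 and -0.29. Between Col6a1-/- replicate 2 and wildtype replicates 1 and 2, sex and genotype cannot be told apart.

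**Figure D3:**
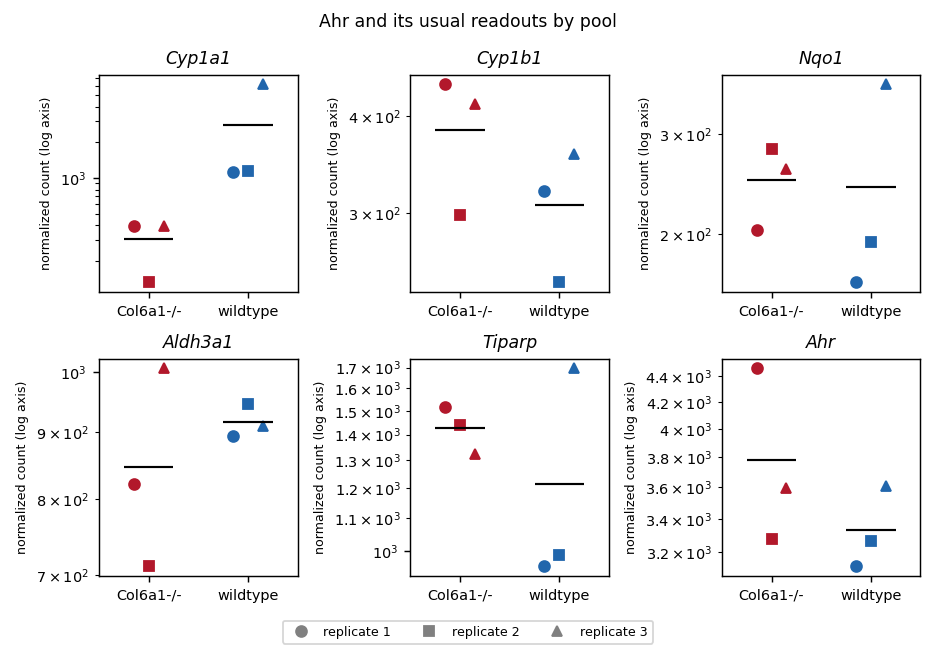
Normalized counts (log axis) of Ahr and 5 usual readouts, Col6a1-/- at the left and wildtype at the right of each panel, with 1 symbol per replicate and a line at the mean of 3 pools. Wildtype replicate 3 (triangle) was the highest of all pools for Cyp1a1, Nqo1 and Tiparp, at 6151, 368 and 1695.

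Cyp2e1, the P450 that oxidises ethanol and small solvents (ENSMUSG00000025479.9, chr7:140763739-140774987, plus strand), had the largest upward difference. It had 573, 1763 and 659.8 normalized counts in Col6a1-/- replicates 1 to 3, against 356, 289 and 244 in wildtype replicates 1 to 3. Every Col6a1-/- pool was above every wildtype pool, and Col6a1-/- replicate 2 was 2.86 times the mean of the other Col6a1-/- pools. Pools averaged 998 ± 663 in Col6a1-/- lungs, against 296 ± 56.5 in wildtype (SD, n = 3 pools each), a 3.37-fold level. By limma it differed by 1.57 ± 0.34 (log2 fold change ± SE, adjusted p 0.0893, edgeR adjusted p 0.0764). Without Col6a1-/- replicate 2 it was 1.07 and passed, at a limma adjusted p of 0.0279, and without wildtype replicate 3 it was 1.44 with 0.0460. The fits without the other pools gave limma adjusted p of 0.0634 to 0.342. The authors' deposited table gave 0.49 with an adjusted p of 0.0314.

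Cyp2e1 is also made by fat cells, and fat tissue markers stood in the same order of pools. Their mean log2 level relative to the 6-pool mean was 0.26, 0.81 and 0.30 in Col6a1-/- replicates 1 to 3, against 0.03, -0.41 and -0.99 in wildtype replicates 1 to 3. Cardiac muscle markers also stood higher in every Col6a1-/- pool, at 0.15, 0.17 and 0.26, against -0.01, -0.20 and -0.36. Of 15 fat markers tested, 14 had higher estimates and 0 passed limma over all genes. At an unadjusted p under 0.05, 11 were higher and 1 was lower (73.3% and 6.67%, against 9.72% and 10.6% of all genes tested). Summed normalized counts of all 16 listed fat markers were 15069 to 21156 in Col6a1-/- and 8531 to 14459 in wildtype pools, and none was at 0 in all pools. Adipoq and Plin1, named after their values were seen, had 377, 592 and 535 and 331, 513 and 293 normalized counts in Col6a1-/- pools, against 311, 234 and 112 and 249, 177 and 85.2 in wildtype pools. Lipe and Acsl1, the most abundant fat markers tested, overlapped between genotypes. Lipe was the 1 lower estimate, at 81.4% of wildtype (log2 fold change -0.31, SE 0.13, limma adjusted p 0.227). Acsl1 stood at 125% of wildtype (log2 fold change 0.30, SE 0.14, limma adjusted p 0.255). The part of fat tissue in the Cyp2e1 difference was not tested. In bulk tissue, more cells of a type and more RNA per cell cannot be told apart.

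Cyp4b1, a lung P450 that activates furans (ENSMUSG00000028713.17), had the highest counts of the 8 P450s of the set, with 16033, 17272 and 16761 normalized counts in Col6a1-/- pools and 18774, 19252 and 14893 in wildtype pools. The ranges overlapped and the log2 fold change was -0.07 (SE 0.11, limma adjusted p 0.745). Cyp2j6, which metabolises arachidonic acid and drugs, had 730.3, 738 and 761 normalized counts in Col6a1-/- against 604, 613 and 702 in wildtype pools. Those groups did not overlap, and the log2 fold change was 0.22 (SE 0.10, limma adjusted p 0.25). Cyp2b10, the usual target of the receptor Car, ranged from 6000.2 to 11205 normalized counts in Col6a1-/- and from 6642 to 8650.5 in wildtype pools, with means of 7930.0 ± 2851 in Col6a1-/- lungs, against 7931 ± 1119 in wildtype (SD, n = 3 pools each). Cyp2s1 and Cyp2d22 stood at 97.8% and 99.9% of wildtype (limma adjusted p 0.941 and 0.986). Por, which supplies electrons to all of these, ranged from 9346 to 15029.8 normalized counts in Col6a1-/- and from 9146 to 11203 in wildtype pools, at a limma adjusted p of 0.797.

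Flavin monooxygenases oxidise nitrogen and sulfur atoms, and Fmo2 is the form known as the lung enzyme. Fmo2 (ENSMUSG00000040170.13, chr1:162874317-162898726, minus strand) had 32005, 49131 and 28563 normalized counts in Col6a1-/- pools, against 27433, 30415 and 30799 in wildtype pools. Col6a1-/- replicate 2 was high, replicate 1 just above the wildtype range and replicate 3 within it. The log2 fold change was 0.27 (SE 0.18, limma adjusted p 0.411), and 0.04 without Col6a1-/- replicate 2. Its neighbour Fmo1, 7.71 kb away, had 15320.4, 17771 and 15059 normalized counts in Col6a1-/- and 13996, 15449 and 14002 in wildtype pools (log2 fold change 0.15, SE 0.10, limma adjusted p 0.426). Fmo5, which lies on chromosome 3 and oxidises ketones to esters, had 1361, 1614 and 1381 in Col6a1-/- pools, all above the 1299, 1352 and 1264 of wildtype pools, at a log2 fold change of 0.15 and a limma adjusted p of 0.40.

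Among glutathione transferases, 9 of 12 had higher estimates and the median on the log2 scale was 0.19, while 4 had an unadjusted p under 0.05, none of them lower (33.3% higher, against 9.72% of all genes tested higher and 10.6% lower). Mgst1, a membrane-bound transferase and peroxidase (ENSMUSG00000008540.11, chr6:138140316-138156755, plus strand), had 8226, 8779 and 9443 normalized counts in Col6a1-/- pools, against 5818, 5755 and 6870.0 in wildtype pools. The groups lay well apart, with no single pool at an extreme. The pools averaged 8816 ± 609 in Col6a1-/- lungs, against 6147 ± 627 in wildtype (SD, n = 3 pools each), 1.43-fold. By limma it differed by 0.52 ± 0.10 (log2 fold change ± SE), with an adjusted p of 0.0786, the smallest of the 38 (edgeR adjusted p 0.0692). It ran from 0.47 to 0.61 in the fits that left out a pool, and passed without wildtype replicate 3 (limma adjusted p 0.00837) and in no fit that left out another pool, with limma adjusted p of 0.0646 to 0.342. The authors' deposited table gave 0.47 with an adjusted p of 0.000726. With the male share as a covariate the log2 fold change was 0.41, with the length and GC trend removed 0.36, and with both 0.19.

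The related Mgst2, which can make leukotriene C4, had 345, 426 and 331 normalized counts in Col6a1-/- pools, against 272, 273 and 301 in wildtype pools, without overlap (log2 fold change 0.37, SE 0.13, limma adjusted p 0.163). The log2 fold change of Mgst2 was 0.10 with the male share as a covariate, 0.17 in pools of mixed sex alone and 0.07 with the trend removed and the male share. Mgst3, the remaining microsomal form, overlapped between genotypes, at 120.0% of wildtype (limma adjusted p 0.267). Gsta3, an alpha-class enzyme known in the mouse for detoxifying aflatoxin epoxide, had 3772, 7085 and 4790.4 normalized counts in Col6a1-/- pools, against 3325, 3682 and 3405 in wildtype pools. All Col6a1-/- pools were higher, Col6a1-/- replicate 1 by little and replicate 2 by most. Its log2 fold change was 0.54 (SE 0.18, limma adjusted p 0.154), and 0.29 without Col6a1-/- replicate 2. In the authors' deposited table it was 0.47 with an adjusted p of 0.0265. Gsta4, which clears the lipid peroxidation product 4-hydroxynonenal, had 1759.9, 2472 and 2124 normalized counts in Col6a1-/- pools, against 1681, 1687 and 1521 in wildtype pools, without overlap (log2 fold change 0.37, SE 0.12, limma adjusted p 0.149). For Gsta4 the log2 fold change was 0.34 with the male share as a covariate, 0.28 with the trend removed, and 0.14 with both.

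**Figure D4:**
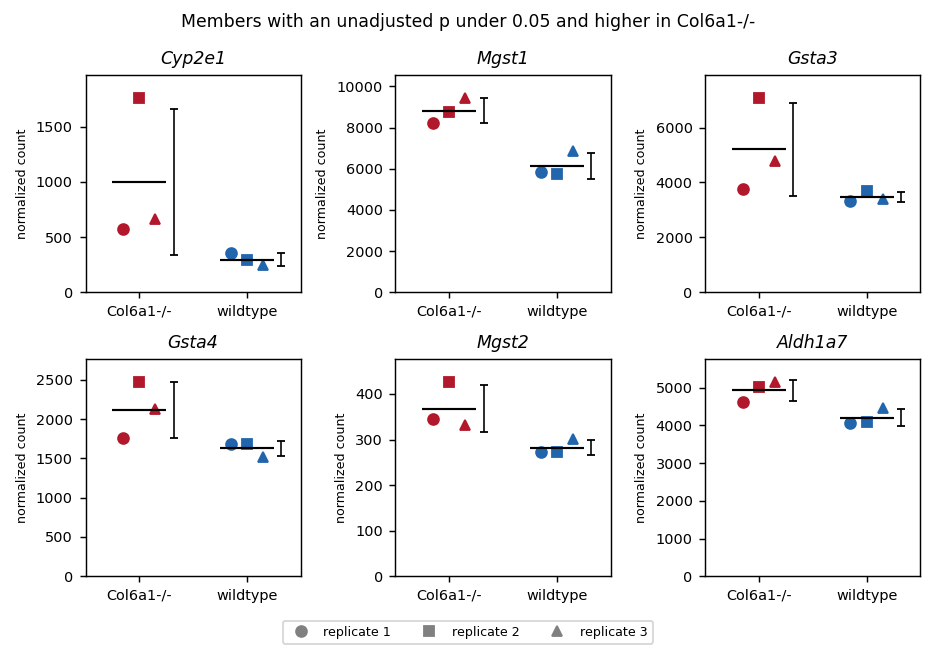
Normalized counts (linear axis from 0) of the 6 genes with an unadjusted p under 0.05 and a higher estimate, Col6a1-/- at the left of wildtype, with 1 symbol per replicate, a line at the mean and a bar of 1 SD over 3 pools. Every Col6a1-/- pool lay above every wildtype pool in all 6 panels, and Col6a1-/- replicate 2 stood apart for Cyp2e1 at 1763 and Gsta3 at 7085.

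Gstm1, a mu-class transferase (ENSMUSG00000058135.12, chr3:108012255-108017973, minus strand), had 14797, 17439 and 15939.6 normalized counts in Col6a1-/- pools and 16384, 16420.5 and 15427 in wildtype pools. The wildtype pools lay within the wider range of the Col6a1-/- pools, with a mean in Col6a1-/- lungs of 99.9% of wildtype (SE of the log2 fold change 0.09, limma adjusted p 0.985). Gstm2, 25.8 kb from Gstm1, stood at 98.4% of wildtype (limma adjusted p 0.908). Gstm5, 83.0 kb from Gstm2, was low, at 333, 326 and 399 normalized counts in Col6a1-/- and 300.1, 309.6 and 294 in wildtype pools, without overlap and with a limma adjusted p of 0.328. Gstp1, the pi-class enzyme, stood at 95.8%, and Gsto1, the omega-class enzyme, at 113% of wildtype, with limma adjusted p of 0.801 and 0.392. Counting is uncertain for some of these genes, since near-identical copies can share reads. In windows of 50 bases of the longest transcript, 62.3% of Gstp1 was also found in Gstp2, and 23.1% of Gstm1 in transcripts of other genes. Such shared windows were over 10% in 4 of the 38 genes, Gstp1, Gstm1, Cyp4b1 and Gstm5, and absent in 12.

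The theta-class genes Gstt1 and Gstt3 lie on chromosome 10, the chromosome of Col6a1, 910 and 927 kb from it. Gstt1 had 2274, 2784 and 2521 normalized counts in Col6a1-/- and 2491, 2308 and 2164 in wildtype pools, and Gstt3 had 916, 839.7 and 1019.7 in Col6a1-/- and 908, 849 and 819 in wildtype pools. Both overlapped, with log2 fold changes of 0.12 and 0.10 and limma adjusted p of 0.517 and 0.588. Gstt2, another gene of this class and no member of the set, lies 871 kb from Col6a1. It had 603, 842 and 691 normalized counts in Col6a1-/- pools, all above the 509, 524 and 449 of wildtype pools, a log2 fold change of 0.52 (SE 0.13, limma adjusted p 0.103).

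Aldh1a1, the retinaldehyde dehydrogenase that also clears lipid aldehydes (ENSMUSG00000053279.8, chr19:20492715-20643465, plus strand), had the highest mean count of the 38. It had 34044, 45937 and 36246 normalized counts in Col6a1-/- pools, against 29674, 29631 and 35678 in wildtype pools. Wildtype replicate 3 lay within the Col6a1-/- range and the other wildtype pools below it. Its log2 fold change was 0.28 (SE 0.13, limma adjusted p 0.264), and -0.06 with the male share as a covariate. Its neighbour Aldh1a7, 49.5 kb away, had 4621, 5023 and 5151 normalized counts in Col6a1-/- pools, against 4067, 4090.3 and 4459 in wildtype pools. These did not overlap, and Aldh1a7 varied little, with a log2 fold change of 0.23 (SE 0.09, limma adjusted p 0.178). With the male share as a covariate it was 0.16, and 0.055 with the length and GC trend removed as well. The transcripts of Aldh1a1 and Aldh1a7 shared 6.54% and 7.49% of their windows with each other. The alcohol dehydrogenase genes Adh1 and Adh7, 27.6 kb apart, stood at 100.1% and 121% of wildtype, both with overlap, at limma adjusted p of 0.986 and 0.33.

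Ces1d, the carboxylesterase that hydrolyses ester drugs and triglyceride (ENSMUSG00000056973.6, chr8:93166068-93197838, minus strand), had 18203, 26706 and 20139 normalized counts in Col6a1-/- pools, against 17269, 18177 and 17373 in wildtype pools. Col6a1-/- replicate 1 was only just above the highest wildtype pool, and Col6a1-/- replicate 2 was far above all others. For Ces1d the log2 fold change was 0.28 (SE 0.13, limma adjusted p 0.265), and 0.12 without Col6a1-/- replicate 2. Ephx1, the microsomal epoxide hydrolase, had 5719, 9879.9 and 6145 normalized counts in Col6a1-/- pools and 6035, 6267 and 6066 in wildtype pools, so that Col6a1-/- replicate 2 alone was outside the wildtype range by much (limma adjusted p 0.532). Cbr1 and Cbr3, carbonyl reductases 72.7 kb apart, stood at 115% and 119.9% of wildtype with overlap, and Aox3, an aldehyde oxidase, at 98.0% (limma adjusted p 0.279, 0.387 and 0.88).

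Col6a1-/- replicate 2 was the pool in which 20 of the 38 genes had their highest value (52.6%), against 19.2% of all genes tested. Its values were over 1.5 times the mean of the other Col6a1-/- pools for 6 of the 38, Cyp2b10, Cyp2e1, Por, Fmo2, Gsta3 and Ephx1, which is 15.8% of the 38 against 3.23% of all genes tested. These ratios were 1.78 for Cyp2b10, 2.86 for Cyp2e1, 1.59 for Por, 1.62 for Fmo2, 1.66 for Gsta3 and 1.67 for Ephx1. Of these 6 genes, Cyp2b10, Por, Fmo2 and Ephx1 overlapped between genotypes. The median coefficient of variation of the 38 genes was 14.0% over the Col6a1-/- pools and 7.11% over the wildtype pools. Col6a1-/- replicate 2 also had the highest male share and the highest mean levels of the fat marker and club cell lists. The part of any of these in the values was not tested. Without Col6a1-/- replicate 2, 26 of the 38 had higher estimates, and 12 lay above wildtype without overlap, against 18.2% of all genes tested.

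**Figure D5:**
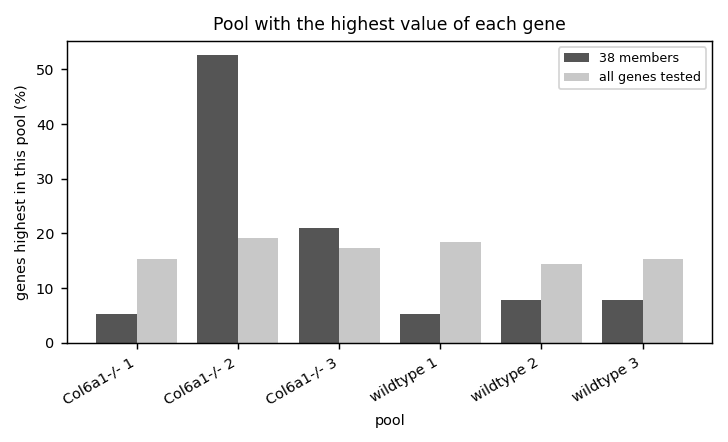
Bars give the percentage of genes whose highest value fell in each pool, dark for the 38 genes and light for the 16879 genes tested, Col6a1-/- pools first. Col6a1-/- replicate 2 held the highest value of 52.6% of the 38 genes and of 19.2% of all genes tested.

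Levels can be compared between genes only per length. As mean normalized counts per kb of the longest transcript, Aldh1a1 was highest, at 16430.1 in Col6a1-/- and 13427 in wildtype lungs. Gstm1 followed with 12458 in Col6a1-/- and 12472 in wildtype lungs, in both genotypes next to Aldh1a1. Ces1d had 10819.7 per kb in Col6a1-/- and 8786 in wildtype lungs, Fmo2 had 8993 in Col6a1-/- and 7267 in wildtype, and Cyp4b1 had 8821 in Col6a1-/- and 9323 in wildtype. Ces1d was therefore above Fmo2 and Cyp4b1 in Col6a1-/- lungs, and Cyp4b1 above Ces1d and Fmo2 in wildtype lungs. Mgst1 had 7554 per kb in Col6a1-/- and 5268 in wildtype lungs. Ahrr was lowest in both, with 3.30 per kb in Col6a1-/- and 3.46 in wildtype lungs, and Cyp1b1 followed with 74.9 in Col6a1-/- and 60.0 in wildtype. Cyp1a1 had 114 per kb in Col6a1-/- lungs and 1043 in wildtype lungs.

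Other genes of the pathway were read from lists chosen by function. Of the other P450 and electron transfer genes, 18 of 21 tested had higher estimates and 7 lay above wildtype without overlap, with 0 called by limma over all genes and 4 higher at an unadjusted p under 0.05 (85.7%, 33.3% and 19.0% of the list, against 51.7%, 10.7% and 9.72% of all genes tested). Pgrmc1, a haem-binding partner of P450s, had 6809.9, 7315 and 7694 normalized counts in Col6a1-/- and 4813, 4828 and 6186 in wildtype pools (log2 fold change 0.47, SE 0.11, limma adjusted p 0.0942). Cyp2f2, the naphthalene-activating P450 of club cells and a marker of them, averaged 90658 ± 9235 in Col6a1-/- lungs, against 80495 ± 5378 in wildtype (SD, n = 3; limma adjusted p 0.462). The club cell list as a whole had higher estimates for 15 of 18 genes, a median of 0.17 on the log2 scale, and 0 called, and its median was 0.48 with the male share as a covariate and 0.42 in pools of mixed sex alone. The ciliated cell list had 12 of 14 higher estimates and a median of 0.19, 0 called, with 0.43 under that covariate and 0.42 in those pools. Summed normalized counts of the club cell list were 776162 to 972554 in Col6a1-/- and 593312 to 756686 in wildtype pools. Most of these were from Scgb1a1, with 609794 to 776432 in Col6a1-/- and 453856 to 591784 in wildtype pools. The mean log2 level of the club cell list overlapped between genotypes, at -0.04 to 0.22 in Col6a1-/- and -0.49 to 0.14 in wildtype pools. Summed counts of the ciliated cell list overlapped too, at 69253 to 78586 in Col6a1-/- and 61747 to 74126 in wildtype pools. The part of club cell number in the enzyme values was not tested. Of the other marker lists, 9 of 9 red cell and 13 of 14 cardiac muscle genes had higher estimates, with medians of 0.82 and 0.40. Lower estimates were seen for 11 of 15 endothelial, 13 of 14 alveolar macrophage and 12 of 14 alveolar type 2 genes, with medians of -0.17, -0.19 and -0.14, and limma called 0 in these 5 lists.

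Of other dehydrogenases, reductases and hydrolases, 28 of 38 tested had higher estimates and 11 lay above wildtype without overlap, with 0 called by limma and 10 higher and 1 lower at an unadjusted p under 0.05. All genes tested had 51.7% above 0, 10.7% above wildtype without overlap, and 9.72% higher and 10.6% lower at that p. Akr1c14, a hydroxysteroid dehydrogenase, had 2329.6, 2477 and 2283 normalized counts in Col6a1-/- and 1566, 1596 and 1764 in wildtype pools (log2 fold change 0.53, SE 0.09, limma adjusted p 0.0681). Bche, butyrylcholinesterase, stood at 1.99-fold and Pon1, paraoxonase, at 1.44-fold the wildtype level, with limma adjusted p of 0.0693 and 0.0869. Of 14 tested conjugating enzymes, 12 had higher estimates, and 1 was called higher by limma, against 0.0178% of all genes tested. The gene called was the sulfotransferase gene Sult1d1, with 511, 467 and 542 normalized counts in Col6a1-/- and 220.2, 277 and 253 in wildtype pools (log2 fold change 1.02, SE 0.13, limma adjusted p 0.0215). With the length and GC trend removed the log2 fold change of Sult1d1 was 0.23 and it did not pass, and those of Akr1c14 and Pon1 were 0.18 and 0.11. That of Bche was 0.80 and passed, at a limma adjusted p of 0.0418, in a fit that called 51 genes in all. With the male share as a covariate as well, Bche was at 0.53 and did not pass.

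The other glutathione genes had 15 of 22 higher estimates and a median of 0.08, and the Nrf2 targets 8 of 20 and a median of -0.02. Limma called 0 in either list. At an unadjusted p under 0.05, 4 other glutathione genes were higher and 1 lower (18.2% and 4.55%). Of the Nrf2 targets, 3 were higher and 1 lower (15% and 5%). All genes tested had 9.72% higher and 10.6% lower at that p, and 20.3% in either direction. Gclc, which makes the rate-limiting subunit for glutathione, stood at 84.5% of wildtype, and G6pdx, which regenerates NADPH, at 78.6%, without overlap (limma adjusted p 0.167 and 0.126). Prdx1, a peroxiredoxin, was at 1.27-fold the wildtype level (limma adjusted p 0.149). Among Ahr partners and other xenobiotic receptors, 9 of 13 had lower estimates and 0 were called. At an unadjusted p under 0.05, 2 were higher and 3 lower (15.4% and 23.1%, against the same 9.72% and 10.6%). Hsp90ab1, a chaperone that holds Ahr in the cytosol, had 31594.9, 31467 and 32429 normalized counts in Col6a1-/- and 41869, 43306 and 40938 in wildtype pools (log2 fold change -0.40, SE 0.09, limma adjusted p 0.0942). Ptges3, the co-chaperone p23, was at 1.42-fold the wildtype level with overlap (limma adjusted p 0.174). Of 18 transporters tested, 12 had lower estimates and 0 were called. At an unadjusted p under 0.05, 1 was higher and 3 were lower (5.56% and 16.7%, against 9.72% and 10.6% of all genes tested). The multidrug exporters Abcc4 and Abcc3 stood at 74.1% and 84.4% of wildtype (limma adjusted p 0.122 and 0.152), and the cation exporter Slc47a1 at 1.67-fold (limma adjusted p 0.108).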

How the data were processed

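The values are RNA-seq reads per gene from 6 lung libraries, each a pool of 2 animals. The authors deposited normalized counts, a signal that is the read count divided by 1 DESeq2 size factor per library, and a table of their comparison with a mean score, a log2 fold change, a test statistic, raw p-values and adjusted p-values; whether those fold changes were shrunk is not given. Per the submitters' processing notes the tools include DESeq2 1.16.1 in R 3.4.1, featureCounts of Subread 1.5.0p3, STAR 2.5.2b and Trimmomatic 0.36, with GRCm38.p5; whether counting used strand is not stated there. The column of wildtype replicate 2 carries the added word New.

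Genes with at least 10 normalized counts in at least 3 libraries (16879 of 49568) were tested with the two-sided trend test of limma 3.58.1 in R 4.3.3, on normalized counts as log2(value + 1), with Benjamini-Hochberg adjustment over all genes tested and a threshold of 0.05. Fold changes on this scale understate those of low genes. Whole reads were recovered as normalized count times size factor, with 100% of values whole within 1e-06 (the factor of Col6a1-/- replicate 3 is too close to 1 to test this alone), and were analysed with edgeR 4.0.16 and DESeq2 1.42.0 as alternatives, which called 13 and 742 genes. The fits were tested on simulated data. Gene positions, lengths and GC content came from GENCODE M21 (GRCm38), matching 95.3% of symbols, and promoters from RefSeq (GRCm38.p6). Other alternatives changed the pseudocount, the filter, the scaling, the weights, the covariates and the pools included.

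The 38 genes, the pathway lists and the marker lists were chosen with earlier results of these data known. Named in full are genes with an unadjusted p under 0.05, the 6 with the highest mean, and Cyp1a1, Cyp1b1, Nqo1, Aldh3a1, Ahr, Ahrr and Tiparp. From each pathway list the genes named are those called, or otherwise at most 3 of those with the smallest p, and from each marker list at most 2 of the most abundant.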

Additional observations from a re-analysis of the deposited data

How the results depend on the processing

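Over all genes limma called 11, and 93 with no filter, 7 with the filter at 50, 26 with median centring, 3225 with library quality weights, 0 with the male share as a covariate, 325 in mixed-sex pools only, 51 with the length and GC trend removed, 0 with that trend removed and the male share as a covariate (chosen after seeing the data), and 742 by DESeq2. Leaving out 1 pool gave 0 to 1383. Of the 38 genes limma called 0, against 2 with no filter, 10 with quality weights, 3 in mixed-sex pools only (Cyp1a1, Cyp2e1 and Nqo1), 4 by DESeq2, and 0 to 4 without 1 pool; the 4 without wildtype replicate 3 were Cyp1a1, Cyp2e1, Mgst1 and Tiparp, and the 1 without Col6a1-/- replicate 2 was Cyp2e1. Genes without overlap numbered 11 (28.9%, against 24.9% of all genes), 25 in mixed-sex pools only (65.8% against 75.2%), and 11 to 19 without 1 pool (19, or 50%, against 46.4% without wildtype replicate 3). Their median log2 fold change was 0.17, 0.041 with trend removed and male share, and 0.081 to 0.22 without 1 pool. The mixed-sex fit has 1 wildtype pool, assumed to vary like the others. With a replicate block limma called 7 genes and 1 of the 38, Cyp1a1. The same-number pools correlated at -0.14, 0.11 and -0.01, and of the Col6a1-/- pools only replicate 2 correlated best with its own number. These are correlations of deviations from means of 3 pools, so they cannot settle whether the numbers pair pools.

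Of 379 single-gene alternatives 326 kept direction and side of the threshold, 24 newly passed it and 30 changed sign, with Nqo1 in mixed-sex pools only among both. With the male share as a covariate the log2 fold changes that changed sign were 0.041 for Ahrr, -0.065 for Aldh1a1, 0.12 for Aldh3a1, 0.13 for Cyp4b1, -0.18 for Fmo2, -0.64 for Nqo1 and -0.29 for Tiparp. In mixed-sex pools only they were 0.051 for Ahrr, -0.022 for Aldh1a1, 0.14 for Cyp4b1, -0.027 for Fmo2, -0.67 for Nqo1 and -0.26 for Tiparp. With the trend removed and the male share they were 0.16 for Ahrr, -0.14 for Aldh1a1, 0.0064 for Aldh3a1, -0.0059 for Ces1d, 0.045 for Cyp4b1, -0.14 for Fmo2, -0.80 for Nqo1 and -0.31 for Tiparp. With quantile normalization Cyp4b1 was at 0.033 and Gstm1 at 0.060. Without 1 pool Ahrr ran from -0.28 to 0.23, Gstm1 from -0.065 to 0.053 and Nqo1 from -0.11 to 0.47. The cause of these changes was not tested. Ahrr, at no more than 24.2 normalized counts, is limited by depth.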
